A study of Mus musculus and Homo sapiens with 4 samples.

Results

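VCaP ERα cells, a prostate cancer line made to overexpress oestrogen receptor alpha (ERα), were compared with the library labelled VCaP, which is the name of the parental line. All entries of the deposited expression values that lie on chromosomes 1 to 22 by their coordinates were taken, which gave 24814 of 25932 entries. The 2 VCaP libraries are 2 of the 4 samples of the series, and each condition has 1 library, so no difference given here has a replicate check and no test between the conditions was possible. Both cultures were kept in DMEM with 10% fetal bovine serum and penicillin and streptomycin, the VCaP culture at passages 5 to 6 and the VCaP ERα culture at passages 4 to 5. The labels name no oestrogen or androgen treatment of these cultures. The comparison library is labelled as VCaP and not as a vector control, and neither the promoter that drives ERα nor whether the overexpressing line is a clone or a pool is given in the sources used here. Ribosomal RNA was removed and the strand was kept in both libraries. The values are RPKM, which scale the reads of an entry by its length and by how many reads of the library were mapped. For each entry 1 was added to both values, and the log2 ratio of VCaP ERα over VCaP was taken. An entry is called expressed where it reached 1 RPKM in at least 1 of the libraries.

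ERα is a ligand-activated transcription factor of the nuclear receptor family. With oestradiol bound it attaches to oestrogen response elements and, in luminal breast cells, drives genes of growth and secretion such as TFF1, GREB1, PGR and MYB. The luminal prostate depends instead on androgens, which together with factors such as FOXA1 and HOXB13 maintain kallikreins, prostatic acid phosphatase and the lipid synthesis of secretory cells. VCaP carries a fusion that places the ETS factor ERG under the androgen-driven TMPRSS2 promoter, so that ERG is an androgen-regulated gene in this line.

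The label VCaP was checked against marker genes, and the library under it did not carry them. Of 12 prostate luminal markers all 12 were expressed, 11 had a log2 ratio above 2 and 0 were below -2, and their summed level was 104 RPKM under the VCaP label and 2387 RPKM in VCaP ERα. The exception was SPDEF, a prostate and mammary ETS factor, with 87.0 and 192 RPKM. HOXB13, which marks prostate identity, had 0.0479 RPKM under the VCaP label and 54.6 RPKM in VCaP ERα. Of 12 luminal breast markers 10 were expressed, with 6 below -2 and 1 above 2, and their sum was 4432 RPKM in the library labelled VCaP against 951 RPKM in VCaP ERα. KRT19 and TFF1 made up most of the first sum, with 1625 and 1596 RPKM there. Of 6 basal epithelial markers 5 were expressed, with summed levels of 56.5 and 4.50 RPKM. Of 8 stromal markers 2 reached 1 RPKM, and 0 of 5 endothelial and 0 of 6 leukocyte markers did. The identity of the cells behind the label VCaP cannot be told apart from the effect of ERα with 1 library a side, and the name is used below only as the label gives it. In bulk RNA fewer cells of a type and less RNA per cell cannot be told apart either.

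The libraries also differed in how many entries they detected. Listed at 0 were 8222 autosomal entries under the VCaP label and 3239 in VCaP ERα, while 11396 and 11593 entries reached 1 RPKM. The 10 highest autosomal entries held 6.69% of the summed RPKM under the VCaP label and 10.1% in VCaP ERα. The number of reads is not given in the sources used here, so the depth is unknown and no limit of detection can be attached to a listed 0.

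A log2 ratio above 2 was reached by 561 autosomal entries, which is 4.15% of the 13519 expressed entries, and 1650 entries, 12.2%, lay below -2. The balance between the directions depended on the scaling. The median log2 ratio of the 9470 entries at 1 RPKM or more in both libraries was -0.59, and when the log2 ratios were centred on this shift 1180 entries (8.73%) lay above 2 and 836 (6.18%) below -2. Entries above 2 were thus 25.4% of those past either threshold without centring, 58.5% with it and 49.9% after quantile normalization. Below, a list is described by how many expressed members passed each threshold without centring, beside 4.15% and 12.2% of all expressed entries. Where list medians are given, they stand beside -0.50 without and 0.091 with centring over all expressed entries. A member that reached 1 RPKM in only 1 library is counted through the library where it is higher. The splits and medians of a list follow in part from this choice. Of the 46 lists, 9 had more members above 2 than below -2, 34 had fewer and 3 had as many. The median of 9 lists changed sign on centring, and quantile normalization gave a sign other than centring in 1 list, that of MHC class II and immune cell genes.

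**Figure D1:**
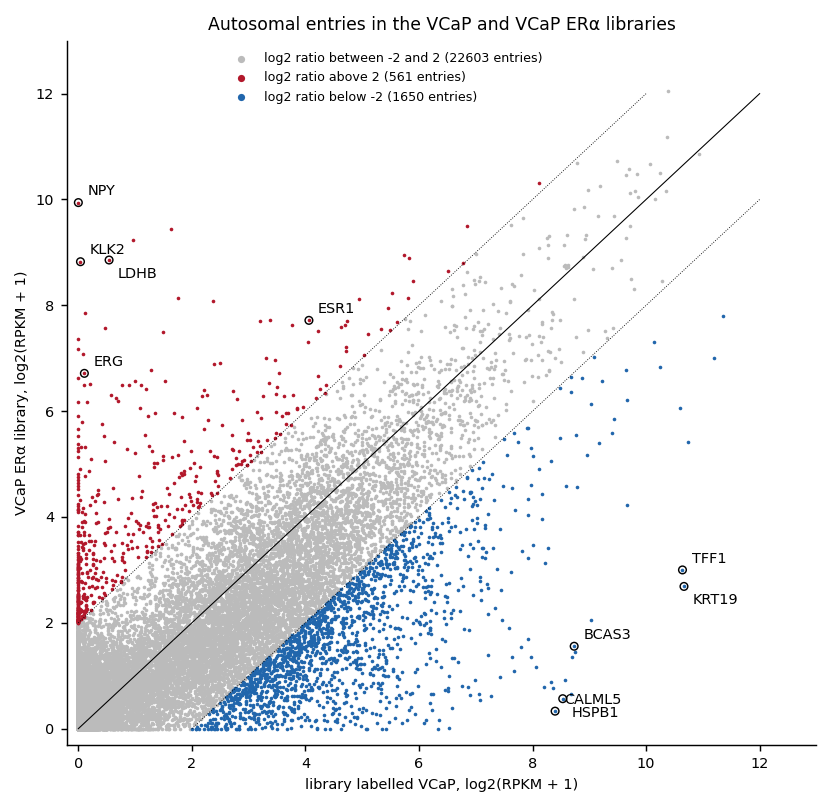
Each point is an autosomal entry, with log2(RPKM + 1) under the VCaP label on the horizontal axis and in VCaP ERα on the vertical axis. The 561 entries above 2 crowd towards the left edge, where the VCaP value is near 0, whereas 0 of the 1650 entries below -2 are under 1 RPKM on that axis and 1293 are at 10 RPKM or more. The solid line marks equal values and the dotted lines log2 ratios of 2 and -2.

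The groups past the thresholds had different shapes. Those above 2 are 2.26% of all 24814 autosomal entries, and those below -2 are 6.65%. Among the entries above 2 the median level was 0.236 RPKM under the VCaP label and 11.9 RPKM in VCaP ERα. Of the same entries 176 were listed at 0 and 356 were under 1 RPKM in the library labelled VCaP, and 84 had a log2 ratio above 4. The entries below -2 went from a median of 20.2 RPKM to a median of 1.78 RPKM, 32 of them were listed at 0 in VCaP ERα, and 218 were below -4. Entries near the thresholds differed little from each other. The 5 entries just inside 2, among them UBE2J1 (19.3 and 80.6 RPKM) and TTC3 (12.3 and 52.6 RPKM), lay between 2.00 and 2.01, and the 5 just outside, among them OVGP1 (0.800 and 6.19 RPKM), reached at most 2.00. At the other threshold the 5 just inside included the interferon-induced ISG20 (9.002 and 1.497 RPKM), and the 5 just outside included PALB2 (7.30 and 1.08 RPKM) and PES1 (18.5 and 3.89 RPKM).

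The 12 highest log2 ratios were those of NPY, KLK2, LDHB, CRISP3, ACPP, STEAP2, PRAC, CLDN8, STEAP1, TARP, CO9 and ERG, from 9.94 for NPY (hg18 chromosome 7, 24290334 to 24298002) to 6.61 for ERG. STEAP2, a metalloreductase abundant in prostate cells, had 0.0782 RPKM under the VCaP label and 229 RPKM in VCaP ERα. Its neighbour in the family, STEAP1, had 0.392 and 189 RPKM. PRAC, a small nuclear protein of prostate and distal colon, was listed at 0 and had 164 RPKM. TARP, a transcript of the T cell receptor gamma locus known from prostate epithelium, had 0.0591 and 134 RPKM. None of the 12 exceeded 2.11 RPKM in the library labelled VCaP, and each had at least 97.2 RPKM in VCaP ERα.

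CALML5, S100A16, KRT19, HSPB1, S100A9, TFF1, CEACAM6, SULF2, SERPINA3, S100P, C3orf57 and BCAS3 had the 12 lowest log2 ratios, from -8.07 for CALML5 (hg18 chromosome 10, 5530660 to 5531510) to -7.18 for BCAS3. CEACAM6, a cell adhesion molecule of mucosal epithelia, had 329 RPKM under the VCaP label and 0.695 RPKM in VCaP ERα. SULF2, a sulphatase that edits heparan sulphate, had 322 and 0.832 RPKM, and the protease inhibitor SERPINA3 had 293 and 0.716 RPKM. S100P had 413 and 1.57 RPKM. BCAS3, a gene of 17q that was named for its amplification in breast cancer, had 425 and 1.94 RPKM. Under the VCaP label all 12 reached at least 293 RPKM, so that both ends consisted of genes low in 1 library and abundant in the other.

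**Figure D2:**
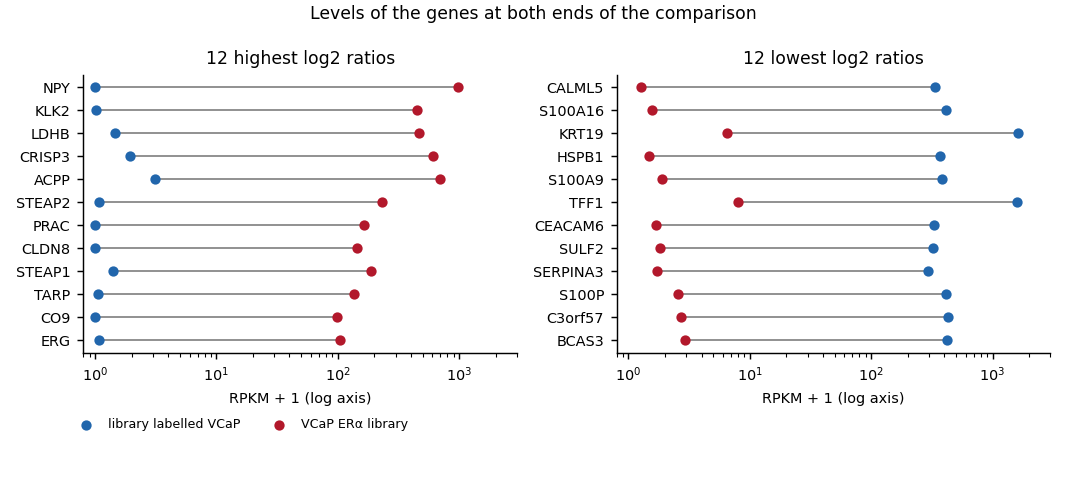
Levels of the 12 genes with the highest (left) and the 12 with the lowest (right) log2 ratio, as RPKM + 1 on a log axis, with 1 point per library. Genes on the left lie at or below 2.11 RPKM in the library labelled VCaP (blue) and genes on the right at or below 6.998 RPKM in VCaP ERα (red).

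ESR1, the gene of ERα (hg18 chromosome 6, 152053324 to 152466101), had 15.7 RPKM under the VCaP label and 209 RPKM in VCaP ERα. Its log2 ratio was 3.65, or 4.24 relative to the shift, in the direction of the labels, and ranked 105 among the 24814 autosomal entries. Reads of the introduced and of the endogenous gene cannot be told apart.

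Other nuclear receptors did not share the direction of ESR1. Of 36 autosomal entries of the family 26 were expressed, 1 (ESR1) was above 2 and 7 were below -2, with a median of -0.76, or -0.18 relative to the shift. The retinoic acid receptors RARG (37.5 and 1.29 RPKM) and RARA (7.47 and 1.02 RPKM), the adipogenic receptor PPARG (8.59 and 0.254 RPKM), the liver X receptor NR1H2 (20.04 and 2.64 RPKM) and the glucocorticoid receptor NR3C1 (6.44 and 0.666 RPKM) were below -2. The progesterone receptor PGR, an ERα target in breast, had 3.14 RPKM under the VCaP label and 0.0954 RPKM in VCaP ERα. Among 20 expressed receptor coregulators 0 were above 2 and 3 below -2, and NCOA3, a coactivator of ERα encoded at 20q, stood furthest from the shift with 148 and 3.51 RPKM. NCOA1, a coactivator of the same family, had 8.10 and 6.89 RPKM.

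Known oestrogen response genes were mostly lower where ESR1 was higher. Of 30 genes 27 were expressed, 12 were below -2 and 1 was above 2, with a median of -1.91, or -1.33 relative to the shift. TFF1, the secreted trefoil peptide that is a standard reporter of ERα activity, had 1596 RPKM under the VCaP label and 6.998 RPKM in VCaP ERα. The lysosomal protease CTSD had 806 and 17.7 RPKM and the related trefoil peptide TFF3 285 and 14.5 RPKM. SIAH2, a ubiquitin ligase, had 58.4 and 5.96 RPKM, and the cyclin CCND1 had 139 and 31.7 RPKM. GREB1, an ERα cofactor and early target, had 11.4 and 4.44 RPKM, a log2 ratio of -1.19 that stayed inside the thresholds, as did XBP1 with 623 and 182 RPKM. The only member above 2 was AGR2, a disulphide isomerase of secretory cells, with 114 and 727 RPKM. RBBP8 (3.48 and 4.67 RPKM) and OLFM1 (6.81 and 7.44 RPKM) were the only other members above 0 before centring.

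Androgen-responsive genes differed in the other direction. All 26 expressed members of 27 lay above the shift, 15 were above 2 and 0 below -2, with a median of 3.00, or 3.59 relative to the shift. FKBP5, a co-chaperone of steroid receptors, had 0.999 RPKM under the VCaP label and 94.2 RPKM in VCaP ERα. SLC45A3, a transporter known from the prostate, had 1.81 and 179 RPKM, and TMPRSS2, a serine protease and the promoter partner of the ERG fusion, had 8.18 and 208 RPKM. NDRG1 had 4.61 and 119 RPKM, the elongation factor ELL2 5.58 and 82.2 RPKM, and its partner EAF2 0.376 and 18.5 RPKM. Smaller differences were those of SGK1 (2.04 and 1.48 RPKM), MAF (5.82 and 4.37 RPKM) and PMEPA1 (66.4 and 112 RPKM).

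Prostate secreted and surface proteins overlapped with this list. Of 26 entries 23 were expressed, 16 (69.6%) were above 2 and 1 was below -2, with a median of 5.27. Besides those named above, SPON2, a secreted matrix protein, had 0.113 and 71.6 RPKM, and STEAP4 had 2.53 and 58.0 RPKM. Not every prostate gene was higher. PSCA, a surface antigen of prostate and bladder, had 42.0 RPKM under the VCaP label and 1.44 RPKM in VCaP ERα, and MSMB, a secretory protein of the benign gland, had 5.46 and 0.998 RPKM. The kallikreins KLK2, KLK3 and KLK4 are close in sequence and could share reads.

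**Figure D3:**
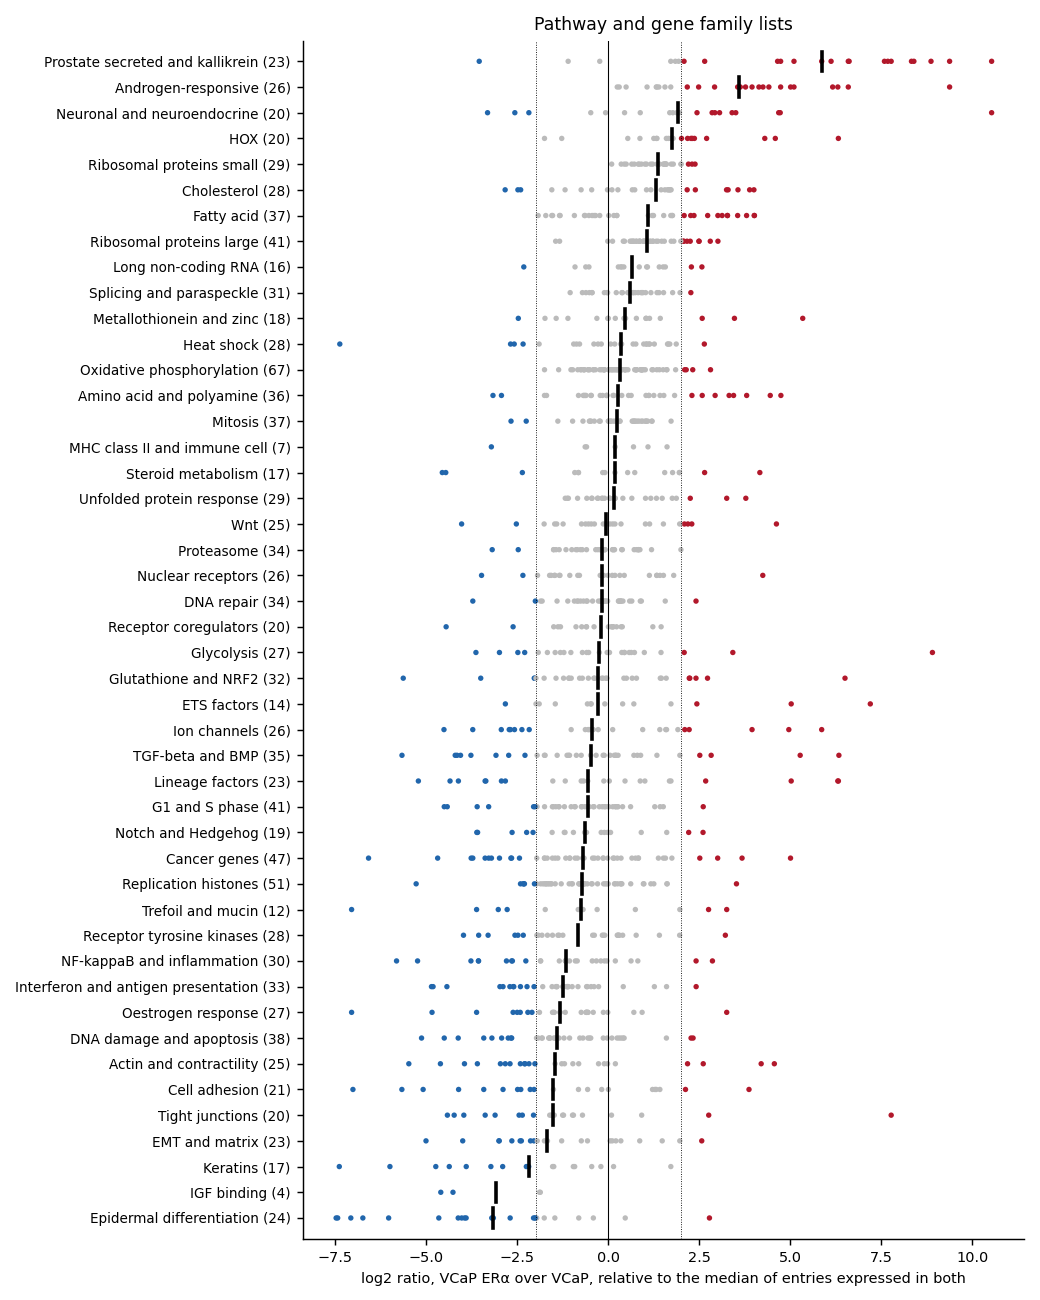
Log2 ratios of the expressed members of 46 pathway and gene family lists relative to the median shift of -0.59, ordered by their median (black bar), with the number of expressed members in brackets. Red points lie above 2 and blue points below -2 on the centred scale, with prostate and androgen-responsive genes at the top and epidermal, IGF-binding and keratin genes at the bottom.

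Transcription factors that set epithelial lineage separated the libraries in both directions. Of 27 such factors 23 were expressed, 4 were above 2 and 8 below -2. GATA3, which maintains luminal breast cells, had 90.5 RPKM under the VCaP label and 0.633 RPKM in VCaP ERα, and TRPS1, a GATA-type repressor of the same cells, had 30.7 and 0.0354 RPKM. SOX2, a stem cell factor, had 29.1 and 0.151 RPKM, TBX2 25.2 and 0.665 RPKM, and TFAP2C 40.2 and 1.66 RPKM. EHF, an epithelial ETS factor, was in contrast higher in VCaP ERα, with 0.801 and 37.96 RPKM. FOXA1, a pioneer factor of breast and prostate epithelium, was alike in the libraries, with 139 and 127 RPKM, and GATA2, a factor of the prostate epithelium, had 8.01 and 11.02 RPKM. With 1 library a side no interval can be given for such small differences.

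Of 14 expressed ETS factors 2 were above 2, ERG and EHF, and 4 were below -2, namely ELF3 (28.7 and 1.78 RPKM), ELF1 (33.5 and 4.79 RPKM), ERF (16.9 and 2.18 RPKM) and ETS2 (5.98 and 0.689 RPKM). Of 39 HOX genes 20 were expressed, 18 of them above the shift, 4 above 2 and 1 below -2. The posterior genes HOXB13, HOXA13 (0.232 and 18.7 RPKM) and HOXA9 (0 and 12.1 RPKM) had the highest values in VCaP ERα together with HOXA10 (4.30 and 16.4 RPKM). HOXC13 was the member below -2, with 7.83 and 0.741 RPKM. The HOX median was 1.16, or 1.74 relative to the shift. Under the VCaP label 13 of the 39 were listed at 0. The split and the median thus follow in part from members that reached 1 RPKM only in VCaP ERα.

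Genes of neurons and neuroendocrine cells were unevenly placed. Of 42 entries 20 were expressed, 8 were above 2 and 3 below -2, with a median of 1.33. Under the VCaP label 22 of the 42 were listed at 0. The split and the median thus follow in part from members that reached 1 RPKM only in VCaP ERα. NPY, a neuropeptide that prostate cancers also secrete, led the list. The vesicle protein SYT4 was listed at 0 and had 16.6 RPKM, the ubiquitin hydrolase UCHL1 had 0.274 and 20.7 RPKM, and the granins CHGA, CHGB and SCG3 were listed at 0 in the library labelled VCaP and had 3.797, 4.53 and 6.53 RPKM in VCaP ERα. Of 7 neuroendocrine markers 6 were expressed, with 2 above 2, the granins CHGA and CHGB, and 1 below -2.

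Keratins were mostly lower in VCaP ERα, before and after centring. Of 22 genes 17 were expressed, 0 were above 2 and 11 (64.7%) below -2, with a median of -2.78, or -2.19 relative to the shift. KRT8 and KRT18, which pair in the filaments of simple epithelia including the prostate, had 1708 and 673 RPKM under the VCaP label and 41.5 and 46.9 RPKM in VCaP ERα. KRT80 had 204 and 1.13 RPKM, KRT81 43.2 and 0.421 RPKM, and the basal keratin KRT17 38.9 and 0.774 RPKM. KRT14, another basal keratin, was the one expressed member above 0, from a listed 0 to 1.19 RPKM.

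The epidermal differentiation list had the lowest median of the 46 lists, -3.76, or -3.17 relative to the shift, with 20 of 24 expressed members (83.3%) below -2 and 1 above 2. The list holds S100 proteins, which are small calcium sensors. Of 12 S100 genes 11 were below -2, and their summed level was 3872 RPKM under the VCaP label and 177 RPKM in VCaP ERα. S100A11 had 1539.6 and 65.4 RPKM, S100A14 251 and 1.55 RPKM, and S100A8, which pairs with S100A9 as calprotectin, 94.4 and 1.51 RPKM. S100A2 (1.68 and 1.46 RPKM) was the exception. The 14-3-3 protein SFN had 32.4 and 0.273 RPKM, the cornified envelope protein PPL 48.0 and 0.998 RPKM, and the secreted kallikreins KLK11 (21.9 and 0.653 RPKM) and KLK6 (21.2 and 0.655 RPKM) were lower, unlike the prostate kallikreins. The trefoil and mucin list held both directions, with MUC1 at 20.8 and 0.780 RPKM and AGR3, the paralog of AGR2, at 0.776 and 6.97 RPKM.

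Junction and adhesion genes were also lower in VCaP ERα, with exceptions in each family. Of 21 expressed cell adhesion genes 11 were below -2 and 1 above 2, and of 20 expressed tight junction genes 11 were below -2 and 2 above 2. CDH1, the E-cadherin of epithelial adherens junctions, had 122 and 14.4 RPKM, and JUP, the plakoglobin that links cadherins to the cytoskeleton, had 242 and 8.32 RPKM. Among 9 expressed claudins, the strands of the tight junction, CLDN3 (173 and 5.13 RPKM), CLDN4 (82.3 and 9.12 RPKM), CLDN7 (147 and 5.29 RPKM) and CLDN9 (21.4 and 0.429 RPKM) were below -2. CLDN8, listed at 0 in the library labelled VCaP and at 144 RPKM in VCaP ERα, and CLDN12 (6.54 and 32.9 RPKM) were above 2. Desmosome genes were split in a similar way, since DSP (82.6 and 6.48 RPKM) was lower and the desmocollin DSC2 (1.14 and 19.7 RPKM) higher.

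Matrix receptors and the actin cytoskeleton followed. Of 38 EMT and matrix genes 23 were expressed, 12 were below -2 and 0 above 2. VIM, the vimentin of mesenchymal cells, was under 1 RPKM in both libraries (0.420 and 0.246 RPKM), and 7 of the members below -2 were integrins or laminins. ITGB4, which joins hemidesmosomes, had 75.0 and 0.570 RPKM, ITGB6 had 24.2 and 0.0464 RPKM, and their relative ITGB1 had 31.3 and 22.1 RPKM. The secreted THBS1 had 50.8 and 3.29 RPKM. Of 25 expressed actin and contractility genes 13 were below -2 and 3 above 2. ACTB and ACTG1, the cytoplasmic actins often used as reference genes, had 2334 and 2609 RPKM under the VCaP label and 127 and 221 RPKM in VCaP ERα. The actin-severing GSN had 115 and 0.729 RPKM, whereas the bundling protein LCP1, an androgen-responsive gene, had 3.27 and 66.0 RPKM. Cofilin, CFL1, was close to the shift at 755 and 465 RPKM.

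Receptor tyrosine kinases and growth factor pathways gave mixed lists with more members below -2. Of 28 expressed tyrosine kinase genes and their adaptors 11 were below -2 and 1 above 2. ERBB2 (15.1 and 0.915 RPKM), ERBB3 (37.97 and 1.19 RPKM) and ERBB4 (4.71 and 0 RPKM) were below -2, while EGFR, the receptor of the same family, had 1.498 and 3.39 RPKM. The insulin receptor substrates exchanged places, with IRS1, an oestrogen-responsive adaptor, at 39.0 and 0.688 RPKM and IRS2 at 0.894 and 10.7 RPKM. All 4 expressed IGF-binding proteins were below -2, IGFBP3 with 62.5 and 0.739 RPKM and IGFBP5 with 60.2 and 1.11 RPKM. IGF1R, the receptor, had 50.1 and 29.9 RPKM.

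In the TGF-beta and BMP list 35 of 41 genes were expressed, 11 were below -2 and 3 above 2. The ligand BMP7 had 223 and 1.92 RPKM, the distant family member GDF15 195 and 6.83 RPKM, and the type II receptor TGFBR2 17.3 and 0.435 RPKM. Of the signal carriers, SMAD3 had 47.6 and 0.752 RPKM, SMAD2 10.4 and 11.3 RPKM, and SMAD4 3.00 and 14.2 RPKM. The BMP-induced inhibitors ID1 (95.9 and 3.71 RPKM) and ID3 (71.3 and 1.70 RPKM) were below -2, and ID4 (3.28 and 19.2 RPKM) was above 2. BMPR1B, a type I receptor, had 1.34 and 58.9 RPKM, and FSTL1, a secreted BMP antagonist, had 0.482 and 78.5 RPKM. Wnt genes were near the shift as a list, with a median of -0.64 and 5 of 25 expressed members below -2, although the effector LEF1 (0.0442 and 16.05 RPKM) and the inhibitor DKK1 (23.6 RPKM and listed at 0) stood at opposite ends. Of 19 expressed Notch and Hedgehog genes 6 were below -2, among them the receptor NOTCH3 (28.3 and 0.594 RPKM), and 1 above 2, the ligand DLL3 (0 and 3.04 RPKM).

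Cholesterol synthesis enzymes were mostly higher in VCaP ERα. Of 17 enzymes, all expressed, 14 had log2 ratios above 0 before centring and also after it (15 after quantile normalization), 4 were above 2 and 1 was below -2, and their summed level was 452 RPKM under the VCaP label and 1069 RPKM in VCaP ERα. HMGCS1, at the entry of the mevalonate pathway, had 17.7 and 182 RPKM. IDI1, which isomerises the isoprenoid unit, had 23.6 and 192 RPKM. HMGCS1, IDI1 and the late enzymes SC4MOL (8.31 and 57.8 RPKM) and SC5DL (2.39 and 35.1 RPKM) were the 4 above 2. Squalene epoxidase, SQLE, had 31.4 and 95.6 RPKM, a log2 ratio of 1.58. Lower were 3 enzymes, namely MVD (17.3 and 1.18 RPKM), DHCR7 (67.1 and 26.0 RPKM) and LSS (30.3 and 19.5 RPKM). Regulators of the pathway differed in both directions, since SREBF2, the transcription factor of the pathway, had 10.2 and 7.90 RPKM, and SREBF1 46.4 and 4.94 RPKM, while the sterol sensor partners INSIG1 and INSIG2 had 45.1 and 299 RPKM and 3.00 and 6.26 RPKM. The sterol exporters ABCA1 (12.8 and 0.285 RPKM) and ABCG1 (13.2 and 2.22 RPKM), which liver X receptors induce, were below -2.

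**Figure D4:**
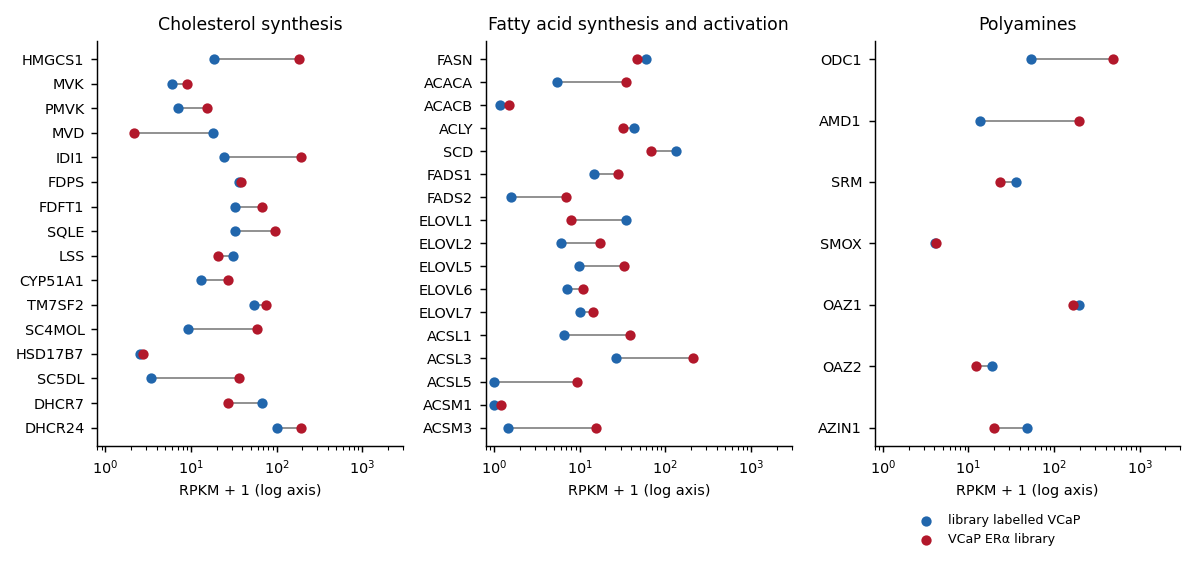
RPKM + 1 on a log axis for all but 1 of the 17 cholesterol synthesis enzymes in pathway order (left), and for enzymes of fatty acid synthesis, elongation and activation (middle) and of polyamine synthesis with its regulators (right), with 1 point per library. Most cholesterol enzymes are higher in VCaP ERα (red), and MVD lies furthest in the other direction.

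The fatty acid list held more members above 2 than below -2, before and after centring. Of 37 expressed members 9 (24.3%) were above 2 and 4 below -2, with a median of 0.51, or 1.10 relative to the shift. Of the 5 acyl-CoA synthetases on the list, which charge fatty acids for use, the 4 expressed ones were above 2, with ACSL3 at 25.7 and 207 RPKM, ACSL1 at 5.59 and 37.3 RPKM, ACSM3 at 0.447 and 14.5 RPKM and ACSL5 at 8.25 RPKM after a listed 0. Other acyl-CoA synthetase genes outside the list, looked up after its values were seen, were below -2, namely ACSF2 (7.62 and 1.12 RPKM), ACSF3 (6.28 and 0.773 RPKM), ACSS3 (6.15 RPKM and a listed 0) and SLC27A2 (19.8 and 2.49 RPKM). AMACR, the racemase used as a marker of prostate cancer, had 5.98 and 73.7 RPKM. For synthesis itself, ACACA, the committed step, had 4.44 and 33.9 RPKM, but the synthase FASN (58.7 and 45.7 RPKM), ACLY (42.0 and 30.8 RPKM) and the desaturase SCD (131 and 67.8 RPKM) were lower before centring. The carnitine transferase CPT1A, the gate of mitochondrial oxidation, had 28.0 and 5.68 RPKM, and ACADVL had 34.7 and 5.25 RPKM, while ACADM for medium chains had 1.51 and 15.2 RPKM.

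Polyamines, which the prostate secretes in large amounts, showed a difference at both rate-limiting enzymes. Ornithine decarboxylase, ODC1, had 52.1 RPKM under the VCaP label and 491 RPKM in VCaP ERα, and AMD1, the decarboxylase of S-adenosylmethionine, had 12.6 and 196 RPKM. ARG2, an arginase that makes ornithine, had 2.01 and 20.7 RPKM. The spermidine synthase SRM (35.2 and 22.5 RPKM), the antizyme OAZ1 (194 and 167 RPKM) and the antizyme inhibitor AZIN1 (47.8 and 19.1 RPKM) did not share that direction before centring. In the same list PSAT1, of serine synthesis, was listed at 0 and had 16.8 RPKM, the creatine kinase CKB had 33.5 and 174 RPKM, and the amino acid transporter pair SLC7A5 (20.9 and 0.906 RPKM) and SLC3A2 (31.1 and 5.33 RPKM) was below -2. The list median, -0.33, was 0.26 relative to the shift, so its direction depended on the scaling.

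Of 27 expressed glycolysis genes 7 were below -2 and 2 above 2, 12 lay above the shift and 15 below it, with a median of -0.83, or -0.25 relative to the shift. Aldolase, ALDOA, had 440 and 22.6 RPKM, the pyruvate kinase PKM2 519 and 69.3 RPKM, ENO1 540 and 130 RPKM, and the glucose transporter SLC2A1 50.6 and 5.12 RPKM. LDHA, which reduces pyruvate, had 64.5 and 66.3 RPKM, whereas its partner subunit LDHB had 0.455 and 462 RPKM and the lactate transporter SLC16A1 had 1.08 and 13.8 RPKM. IDH1, the cytosolic isocitrate dehydrogenase, had 55.3 and 477 RPKM, and the mitochondrial IDH2 had 132 and 29.5 RPKM.

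Antioxidant, zinc and hormone-metabolising genes contained several members that were abundant in 1 library and near 0 in the other. Of 32 expressed glutathione and NRF2 genes 7 were below -2 and 2 above 2. Of 18 metallothionein and zinc genes the numbers were 3 and 2, as of 17 steroid metabolism genes. Relative to the shift the numbers below -2 and above 2 were 4 and 5, 1 and 3, and 3 and 2 in the same order. The medians without and with centring were -0.87 and -0.28, -0.14 and 0.45, and -0.41 and 0.18, so the last 2 lists changed sign. NQO1, a quinone reductase of the NRF2 response, had 241 and 2.23 RPKM, and GPX2 had 25.7 and 0.564 RPKM. GPX1, a peroxidase that most cells express, was listed at 0 in the library labelled VCaP and had 59.3 RPKM in VCaP ERα. Whether that listed 0 means absence was not tested. GSTP1, which is silenced in most prostate cancers, was listed at 0 and had 1.00 RPKM. MT1E, a metallothionein with close paralogs, was listed at 0 and had 25.9 RPKM, while MT2A had 43.0 and 22.5 RPKM. Of the zinc transporters, SLC30A4 had 0.238 and 8.08 RPKM and SLC39A11 16.8 and 1.13 RPKM. In steroid metabolism the aldo-keto reductase AKR1C2 (37.3 and 0.0771 RPKM) and the sulphotransferase SULT2B1 (38.8 and 0.197 RPKM) were below -2, and the dehydrogenases HSD17B11 (2.63 and 42.3 RPKM) and HSD17B12 (4.11 and 20.2 RPKM) were above 2.

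Ion channels and transporters had 8 of 26 expressed members below -2 and 3 above 2. The cold receptor TRPM8, an androgen-regulated channel of the prostate, had 0.0307 and 38.8 RPKM, the sulphate transporter SLC26A2 1.26 and 45.8 RPKM, and the chloride channel CLIC3 50.3 and 0.491 RPKM.

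In the unfolded protein response list 29 of 31 entries were expressed, 2 were above 2 and 0 below -2, and the median was -0.45, or 0.14 relative to the shift. CREB3L4, a membrane-bound factor that androgens induce, had 10.5 and 104 RPKM, and the chaperone HSP90B1 of the heat shock list had 43.9 and 185 RPKM. HSPA5, the main chaperone of the endoplasmic reticulum, had 79.9 and 43.2 RPKM. Of the cytosolic proteins, the small heat shock protein HSPB1 had 369 and 0.481 RPKM, the co-chaperone BAG3 25.3 and 1.72 RPKM, its partner HSPB8 13.8 and 0.938 RPKM, and the constitutive HSPA8 567 and 829 RPKM. Over the heat shock list 5 of 28 expressed entries were below -2 and 1 above 2, and the median was -0.24, or 0.35 relative to the shift.

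Interferon and antigen presentation genes were mostly lower in VCaP ERα, before and after centring. Of 33 expressed entries 16 (48.5%) were below -2 and 0 above 2, with a median of -1.84, or -1.26 relative to the shift. IFITM3, a restriction factor against viral entry, had 175 and 3.15 RPKM, IFI27 57.1 and 0.332 RPKM, and the ubiquitin-like ISG15 207 and 16.5 RPKM. The heavy chain gene HLA-E (47.5 and 0.492 RPKM) was below -2, although heavy chains are close paralogs whose reads can be split. B2M, the shared light chain, had 226 and 804 RPKM. In the list of NF-kappaB and inflammation genes 11 of 30 expressed members were below -2 and 1 above 2. LCN2, a secreted iron-binding protein, had 147 and 1.61 RPKM, the TWEAK receptor TNFRSF12A 133 and 0.579 RPKM, and SOCS2, a feedback inhibitor induced by androgens, 7.93 and 42.1 RPKM. Of the 20 MHC class II and immune cell genes 7 were expressed, and HLA-DRB1 (31.5 and 1.33 RPKM) was the 1 below -2.

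Of 41 expressed G1 and S phase genes 11 (26.8%) were below -2 and 1 above 2, with a median of -1.15, or -0.57 relative to the shift. All 6 MCM helicase subunits were below the shift and 4 were below -2, such as MCM3 (21.1 and 2.53 RPKM) and MCM7 (46.7 and 10.7 RPKM). Cyclin-dependent kinase CDK6 had 19.9 and 0.423 RPKM and its paralog CDK4 125 and 52.7 RPKM. Of 6 expressed CDK inhibitors 4 lay above the shift. CDKN1A (297 and 7.71 RPKM) and CDKN2B (49.3 and 0.558 RPKM) were below -2, and CDKN1C (0.677 and 5.79 RPKM) was above 2. Of the mitosis genes 2 of 37 expressed members (5.41%) were below -2 and 0 above 2. Their median was -0.34, and 0.25 relative to the shift. MKI67, the proliferation antigen, had 5.71 and 2.42 RPKM, TOP2A 7.23 and 11.6 RPKM and CCNB1 21.0 and 17.2 RPKM.

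The list of DNA damage response and apoptosis genes had 19 of 38 expressed members below -2 and 0 above 2, with a median of -1.41 relative to the shift. Of 23 genes that DNA damage induces 22 had log2 ratios below 0, 18 below the shift and 13 below -2. Besides CDKN1A, PHLDA3 had 86.7 and 0.663 RPKM, the tetraspan protein PERP 385 and 22.96 RPKM, the ubiquitin ligase MDM2 28.3 and 4.53 RPKM, and the nucleotide repair factor DDB2 14.3 and 0.516 RPKM. The death receptor FAS was the exception, with 1.41 and 6.74 RPKM. SESN1 (22.2 and 17.2 RPKM) and RRM2B (30.6 and 24.8 RPKM) were above the shift though below 0. In the DNA repair list 4 of 34 expressed members were below -2 and 0 above 2, and BRIP1, a helicase partner of BRCA1 encoded at 17q, was the lowest with 23.2 and 0.217 RPKM.

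Some cancer genes located at 17q and 20q, though not all genes there, were among the lowest of their list. In that list 17 of 47 expressed members were below -2 and 3 above 2. PPM1D, a phosphatase, had 86.1 and 3.25 RPKM, RPS6KB1, the S6 kinase, 62.4 and 5.68 RPKM, and ZNF217 318 and 32.2 RPKM. NRAS, at 1p, had 128 and 14.8 RPKM. MYC (14.7 and 17.5 RPKM) and SPOP (27.7 and 28.9 RPKM) were alike in the libraries. The kinase AKT1 had 64.6 and 11.9 RPKM and its paralog AKT2 18.8 and 7.27 RPKM.

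All 29 expressed small ribosomal subunit genes lay above the shift, with a median of 0.79, or 1.37 relative to it, and 0 passed either threshold before centring. The large subunit had a median of 0.48, with RPL22 (25.2 and 139 RPKM) and RPL9 (3.06 and 17.8 RPKM) above 2. These genes have many processed copies that could share reads. Of 67 oxidative phosphorylation genes, all expressed, 1 was above 2, the succinate dehydrogenase subunit SDHD (13.4 and 65.9 RPKM), and 1 below -2. Splicing and paraspeckle genes had 0 of 31 members past either threshold, and SFPQ, a paraspeckle protein, had 51.0 and 50.3 RPKM. Among proteasome genes PSMD6 (575 and 41.0 RPKM) and PSMC3 (62.4 and 6.58 RPKM) were the furthest of 5 below -2. Long non-coding RNAs had 0 of 16 expressed members above 2 and 1 below -2, SNHG7 (50.8 and 5.88 RPKM). Their median was 0.049, or 0.64 relative to the shift, and MALAT1 had 127 and 503 RPKM. Of 51 expressed replication histone entries, whose mRNAs lack a poly-A tail and share much sequence, 17 were below -2 and 1 above 2, HIST1H4C (24.9 and 197 RPKM).

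The entries below -2 were unevenly spread over the genome. On chromosome 16, 180 of 594 expressed entries (30.3%) were below -2 and 5 (0.842%) above 2, against 12.2% and 4.15% over all autosomes. Chromosome 17 had 17.2% below -2 and chromosome 14 had 16.6%, whereas chromosome 18 had 2.81%. The share above 2 was highest on chromosomes 4 (9.01%), 6 (8.26%) and 11 (8.14%). Neighbouring genes share their place, so these entries are not independent.

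**Figure D5:**
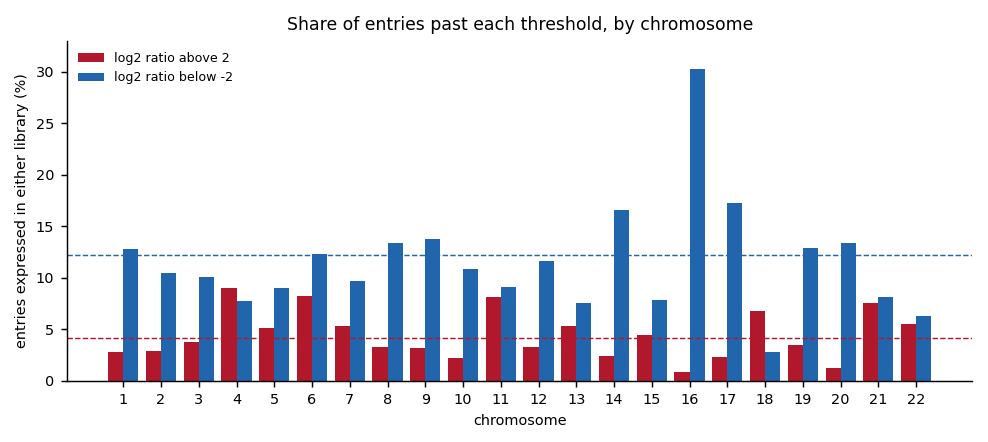
Percentage of expressed entries with a log2 ratio above 2 (red bars) and below -2 (blue bars) on each autosome, with the share over all autosomes as dashed lines at 4.15% and 12.2%. Chromosome 16 stands out with 30.3% below -2 and 0.842% above 2.

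In windows of 10 Mb with at least 20 expressed entries, of which there were 229, the highest share below -2 was 60.6% (43 of 71 entries, 0 above 2) at 80 to 90 Mb of chromosome 16 (hg18). The palmitoyltransferase ZDHHC7 there (83565573 to 83602642) had 94.5 RPKM under the VCaP label and 0.315 RPKM in VCaP ERα. The ubiquitin protease USP10 (83291056 to 83371028) had 32.7 RPKM and was listed at 0. The purine salvage enzyme APRT (87403378 to 87405843) had 287 and 20.8 RPKM, the oxidase subunit CYBA 31.1 and 0.243 RPKM, the replication factors GINS2 21.3 and 0.223 RPKM and CDT1 8.07 and 0.492 RPKM, and the respiratory subunit COX4I1 214 and 41.5 RPKM. MVD and SLC7A5, both named above, lie in the same window. Other windows with a high share were 30 to 40 Mb of chromosome 16, with 26 of 52 entries (50%), and 50 to 60 Mb of chromosome 17, with 42 of 85 (49.4%). In contrast, at 90 to 100 Mb of chromosome 11 14 of 33 entries (42.4%) were above 2 and 0 below -2. They included the phosphatase MTMR2 (2.48 and 19.8 RPKM) and the host gene TAF1D (5.83 and 33.8 RPKM) with small nucleolar RNAs inside it such as SNORA8 (4.22 and 118 RPKM), which overlap their host and are not separate observations. Copy number was not measured in these libraries, and its part in these runs was not tested.

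A stretch of 15q that holds an imprinted domain was near 0 for most of its entries under the VCaP label. From 21121113 to 23235221 of hg18 chromosome 15, which includes MKRN3, MAGEL2, NDN, SNRPN and UBE3A, 89 of 94 entries were listed at 0 there and 27 in VCaP ERα, and of 32 expressed entries 8 were above 2 and 0 below -2. SNURF, the upstream part of the paternally expressed SNRPN transcript, had 0.0682 and 89.0 RPKM, SNRPN itself 0.0173 and 29.0 RPKM, and NDN, also paternally expressed, was listed at 0 and had 8.73 RPKM. Of 25 entries of the SNORD116 cluster of small nucleolar RNAs, which lie in the same long transcript, 24 were listed at 0 in the library labelled VCaP and 20 were above 0 in VCaP ERα. UBE3A, a ubiquitin ligase that most tissues express from both copies, had 15.3 and 24.0 RPKM. The entries of the stretch overlap, so their count is not a number of genes.

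A run of Krüppel-type zinc finger genes at 19q (hg18 chromosome 19, 57066362 to 57243885) had 7 of 8 entries above 2. ZNF577 and ZNF649 were listed at 0 in the library labelled VCaP and had 37.0 and 49.6 RPKM in VCaP ERα. ZNF615 had 1.42 and 108 RPKM, ZNF614 3.53 and 76.8 RPKM, and ZNF350 7.88 and 62.0 RPKM, while ZNF432 at the end of the run had 2.75 and 11.3 RPKM, a log2 ratio of 1.72. Over all 644 expressed entries of zinc finger genes 24 were above 2 and 45 below -2. The genes of the run are paralogs that can share reads.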

How the data were processed

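Expression was measured by strand-specific RNA sequencing in 1 VCaP and 1 VCaP ERα library. The authors deposited RPKM values per entry with hg18 coordinates, and the submitters' processing notes name CASAVA 1.8. No normalization between the libraries is stated, and the other 2 libraries of the series, from mouse fibroblasts, were not used here. Samples were grouped by their labels.

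The tables were joined on the entry identifier. Log2 ratios used a pseudocount of 1, which understates differences of low entries, and no filter. Gene lists were matched by symbol, keeping the entry with the highest mean for each symbol (23 listed symbols were not matched). Members and lists were chosen with earlier results of these data known. Genes were named by rule: the 12 highest and 12 lowest symbols, ESR1, NPY, KRT19 and TFF1, the first gene and up to 4 members furthest from the shift in each list, and the 5 entries on each side of each threshold. Every other gene named, the smaller families within lists and the 15q and 19q regions were chosen after their values were seen. Promoter motifs were planned but not run, since human promoter sequence was not used here. Some genes that the rule covers are not reported here. The script was tested on simulated data. The software was Python 3.11.15 with pandas 2.3.3, numpy 2.4.6 and, for plots, matplotlib 3.10.9.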

Additional observations from a re-analysis of the deposited data

Results flagged for a closer look

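Outside the autosomes, 27 entries of chromosomes X, Y and M had a log2 ratio above 2. They were 19 of 417 expressed entries on X and 8 of 18 on Y, while M had 0 expressed entries. In the other direction 50 entries of X and 1 of Y were below -2. These entries were set aside by the choice of autosomal entries and appear in no list. Over the autosomes 4.15% of expressed entries were above 2 and 12.2% below -2. On X more entries were below -2 than above 2, as on the autosomes, and on Y more were above 2.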

How the results depend on the processing

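The counts depended on the pseudocount and on the scaling, and the cause was not tested. With a pseudocount of 0.1 the entries above 2 numbered 4146 and those below -2 numbered 2836. With the log2 ratios centred on the median the numbers were 1180 and 836, and after quantile normalization 959 and 964. Quantile normalization also brought the median over entries at 1 RPKM or more on both sides to 0.0208. Lists with more members above 2 than below -2 numbered 17 with centring and 17 with quantile normalization, against 9 without. Requiring 1 RPKM on either side cannot change either count, since a log2 ratio past a threshold already needs more than that in 1 library. With 1 entry per symbol the counts were 553 and 1634. The 24 genes at both ends stayed past their threshold under every setting tried. None of these 24 log2 ratios changed sign. The medians of 9 lists changed sign on centring. After quantile normalization the median over entries at 1 RPKM or more in both libraries also changed sign, from -0.59. No paired analysis was possible because each condition has 1 library. The number of reads is not given in the sources used here, so the error of counting is unknown, and spread between cultures was not measured. Most entries above 2 had little or no signal under the VCaP label, where the pseudocount weighs most.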

Other observations

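Small nucleolar RNAs guide the modification of ribosomal RNA and mostly lie in introns of host genes. More of them reached 1 RPKM in VCaP ERα, namely 164 of 322 entries against 108 under the VCaP label. Of the 181 expressed entries 16 were above 2 and 4 below -2, with a median log2 ratio of 0.80, or 1.39 relative to the shift. The 181 include entries that reached 1 RPKM only in VCaP ERα, so the split and the median follow in part from this choice. Listed at 0 were 168 of the 322 entries under the VCaP label and 86 in VCaP ERα. Fragment length and RNA recovery bear on such short entries and were not measured here, and their part was not tested.

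Olfactory receptor genes, which epithelial lines seldom transcribe, gave a view of the lowest values. Of 378 entries 0 reached 1 RPKM under the VCaP label and 1 did in VCaP ERα, and the highest values were 0.283 and 1.44 RPKM. Listed at 0 were 359 of them in the first library and 256 in the second, so that low values above 0 were commoner in VCaP ERα also among genes of this class.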
